A study of Homo sapiens with 10 samples.

Results

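The comparison asked what the stable presence of the progesterone receptor isoform PR-A, without any progestin, goes with in the transcriptome of breast cancer cells. Vehicle-treated T47D cells that stably express wild-type PR-A (WT PR-A) were set against the vehicle-treated PR-negative T47D-Y cells from which they were made. T47D is an established human breast cancer line of luminal type. All cells, those of both lines, had received ethanol, the vehicle, for 24 h, and the labels give medium with 5% charcoal-stripped serum. RNA was hybridised to Affymetrix U133 Plus 2 arrays, 2 for each line. The members are all 12547 probe sets with 1 gene symbol, of 16376 in the table, and they stand for 8904 genes. A further 6 arrays, 2 each of WT PR-A cells with 10 nM of the synthetic progestin R5020, of cells with the SUMOylation-deficient mutant PR-A K388R and vehicle, and of PR-A K388R cells with R5020, were used to estimate the spread and are given beside the comparison. Each PR-A line is a stable transfectant of the cloned T47D-Y line, and whether it is 1 clone or a pool is not stated in the sources used here. Only 1 line carried WT PR-A, so the receptor and the line that carries it cannot be told apart.

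PR-A is the shorter isoform of the progesterone receptor, a nuclear receptor and ligand-responsive regulator of transcription. Without hormone the receptor is largely held in chaperone complexes, although unliganded receptors can also reach chromatin and recruit co-regulators. In breast epithelium PR-A and its longer sister PR-B are made in hormone-sensing luminal cells, largely under control of the estrogen receptor. The R5020 arrays are named here because they show the level of a gene once PR-A is bound by ligand.

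The gene of the receptor itself, PGR, was not analysed here, so the labels could not be checked on it. The 9 measured markers of luminal breast epithelium read between 6.53 and 14.3 log2 units on the 4 compared arrays, with KRT18, EPCAM and FOXA1 at similar levels in both lines. Of the 9, ESR1, KRT19 and ELF3 were called lower in WT PR-A cells and none higher. Most markers of other cell types read below this range. Of 2 measured basal markers KRT5 read up to 4.12. ACTA2 read 8.34 and 8.18 in WT PR-A against 7.22 and 7.16 in T47D-Y and was called higher. Of 6 measured fibroblast markers LUM was at or under the lower quartile of the arrays in both lines, whereas COL1A1 read 9.59 and 9.33 against 8.74 and 8.53 and was called higher, and the other 4 read up to 5.49. Of 4 endothelial markers CDH5 and KDR were that low, and PECAM1 read between 5.68 and 5.88. Of 3 leukocyte markers PTPRC and LYZ were that low and CD14 read up to 4.18, and none of the 12 genes of the wider leukocyte list was called. The median signal was 4.59 to 4.69 and the lower quartile 3.28 to 3.39 over the 10 arrays. Replicate arrays of 1 group correlated at r = 0.996 to 0.997, taken over probe sets, so this n is of features and not of samples. The labels do not say that the replicates were separate cultures, so the p-values rest on the spread among these arrays, which may be technical. In a bulk extract, fewer cells that express a gene and less RNA per cell cannot be told apart.

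A difference is given as WT PR-A vehicle minus T47D-Y vehicle in mean log2 signal, with its standard error (SE) from a limma fit of all 10 arrays that held the replicate number as a block. A probe set was called at a Benjamini-Hochberg adjusted p under 0.05 over all 16376 probe sets together with at least a 1.5-fold difference. For a gene with several probe sets, the one with the highest mean over the 10 arrays was used. WT PR-A cells had 542 member probe sets called higher (4.32%) and 472 called lower (3.76%). By gene, 399 were higher (4.48%) and 359 lower (4.03%). The differences ran from -4.44 to 6.21 with a median of 0.017 over all genes. A difference of at least 4-fold was found for 55 of the higher and 30 of the lower genes, and one of at least 2-fold for 191 and 155. Of the higher genes, 23 had a T47D-Y mean at or under the lower quartile of the arrays, and of the lower genes 14 had a WT PR-A mean that low. Among 266 called genes with more than 1 probe set, all probe sets of 100 were called the same way, and no gene had calls in both directions.

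**Figure D1:**
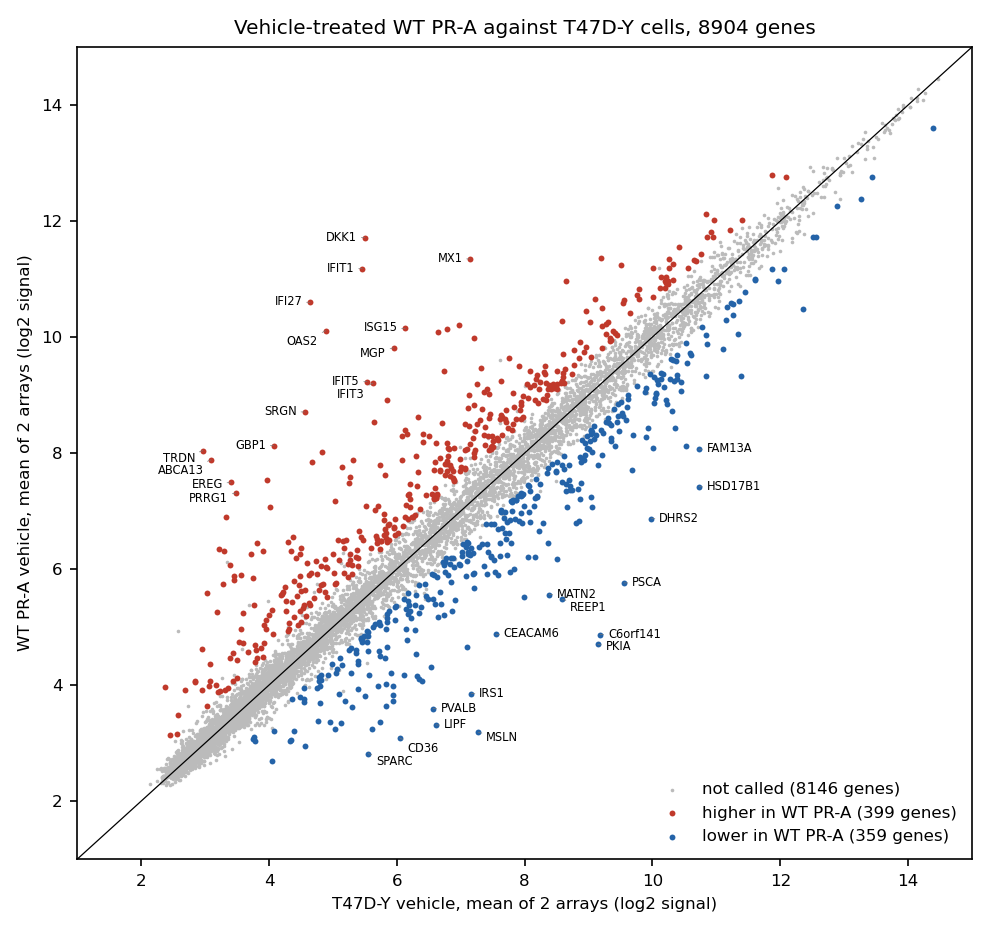
Mean log2 signal of each of 8904 genes in vehicle-treated T47D-Y cells (x axis) and vehicle-treated WT PR-A cells (y axis), 2 arrays each; the line marks equal signal. The 399 genes called higher lie above the line and the 359 called lower lie below it, and the 15 largest differences in each direction are named.

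The gene with the largest difference was DKK1, which encodes a secreted inhibitor of Wnt signalling. Its log2 signal was 11.79 and 11.63 on the WT PR-A arrays and 5.62 and 5.38 on the T47D-Y arrays. Both WT PR-A arrays lay more than 6 log2 units above both T47D-Y arrays, a difference of 6.21 (SE 0.19, adjusted p = 2.3e-07). DKK1 was as high with R5020 (11.71 and 11.62), whereas the PR-A K388R line had 3.85 and 3.74 with vehicle, below T47D-Y. EREG, which encodes the EGF receptor ligand epiregulin, read 7.29 and 7.70 log2 units in WT PR-A against 3.62 and 3.17 in T47D-Y, a difference of 4.10 (SE 0.21, adjusted p = 6.3e-06). A second EREG probe set gave 0.50 and was not called. SRGN encodes serglycin, the proteoglycan core of secretory granules. It read 8.61 and 8.81 on the WT PR-A arrays and 4.6 and 4.51 on the T47D-Y arrays. The difference was 4.15 (adjusted p = 6.6e-06), and with R5020 the level went up again to 11.84 and 11.40. ABCA13, a large membrane transporter of the ABC family, was near the lower quartile in T47D-Y at 3.02 and 3.17 and stood at 7.88 and 7.89 in WT PR-A cells. PRRG1, a membrane protein with a Gla domain, read 7.19 and 7.43 log2 units in WT PR-A against 3.59 and 3.37 in T47D-Y and 3.66 and 3.88 in PR-A K388R cells. In the PR-A K388R vehicle arrays EREG, SRGN and ABCA13 stood at 3.65 and 3.22, 4.20 and 3.88 and 3.07 and 2.75, with differences of -4.06, -4.67 and -4.97 from WT PR-A (adjusted p = 6.4e-06, 4.4e-06 and 1.1e-07); this contrast between the PR-A lines called 9.12% of all genes.

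Other genes of the same rank were high in both PR-A lines. TRDN encodes triadin, a protein of the calcium release complex of muscle. Its signal was 8.06 and 8.02 on the WT PR-A arrays and 2.73 and 3.19 on the T47D-Y arrays. Its PR-A K388R vehicle arrays stood at 7.56 and 6.99. MGP encodes matrix Gla protein, an inhibitor of calcification. It stood at 9.50 and 10.13 on the WT PR-A arrays and 5.61 and 6.29 on the T47D-Y arrays. The PR-A K388R arrays were as high or higher, at 12.18 and 10.79, and the difference between both PR-A lines was not called (1.67, adjusted p = 0.093).

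The genes with the largest deficits in WT PR-A cells came from several functions. PKIA, which encodes an inhibitor of protein kinase A, read 4.44 and 4.96 log2 units in WT PR-A against 9.34 and 8.95 in T47D-Y, a difference of -4.44 (SE 0.20, adjusted p = 2.6e-06). MSLN encodes mesothelin, a glycoprotein anchored at the cell surface. Its log2 signal was 3.0 and 3.37 on the WT PR-A arrays and 7.77 and 6.79 on the T47D-Y arrays. The WT PR-A values lay at the lower quartile of the arrays, so this signal was close to the dimmest on them. C6orf141 had 2 probe sets, which differed by -4.31 and -4.09. In the PR-A K388R vehicle arrays these genes were as low, at 4.30 and 4.06 for PKIA, 3.12 and 3.34 for MSLN and 4.39 and 4.67 for C6orf141. SPARC, a matricellular protein (-2.74), PVALB, a calcium buffer (-2.97), LIPF, gastric lipase (-3.30), and HSD17B1, which makes estradiol from estrone (-3.31), were likewise low in PR-A K388R, and none of these 4 differed between the PR-A lines at the threshold.

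For IRS1, PSCA, CEACAM6 and REEP1 the PR-A K388R vehicle arrays were not called against T47D-Y, and they were called higher than WT PR-A. IRS1, the adaptor of the insulin and IGF1 receptors, read 3.66 and 4.04 log2 units in WT PR-A against 6.80 and 7.53 in T47D-Y and 7.35 and 6.18 in PR-A K388R cells. Its difference from T47D-Y was -3.32 (SE 0.44, adjusted p = 0.0011), and PR-A K388R exceeded WT PR-A by 2.91 (adjusted p = 0.0025). PSCA, a surface antigen of epithelia, stood at 5.36 and 6.16 in WT PR-A, 9.42 and 9.69 in T47D-Y and 10.08 and 9.45 in PR-A K388R cells. CEACAM6, an adhesion molecule of the carcinoembryonic antigen family, was lower by 2.68 log2 units (SE 0.39) and REEP1, which shapes the endoplasmic reticulum, by 3.11 (SE 0.34). Their PR-A K388R arrays read 8.44 and 7.55 and 8.50 and 7.56, against 7.30 and 7.81 and 8.44 and 8.74 in T47D-Y. DHRS2, a short-chain dehydrogenase, MATN2, a matrix protein, and FAM13A were called lower in PR-A K388R cells too, at 7.60 and 7.90, 7.39 and 6.93 and 8.61 and 8.55, where T47D-Y read 10.41 and 9.56, 8.46 and 8.31 and 10.53 and 10.92 and WT PR-A 6.81 and 6.92, 5.43 and 5.70 and 7.95 and 8.18.

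Interferon-stimulated genes were the list with the most calls. Interferons bind surface receptors whose kinases, JAK1 and TYK2, phosphorylate STAT proteins; with IRF9 these form a complex that binds a response element in the promoters of antiviral genes. Of 32 measured interferon-stimulated genes, 21 were called higher (65.6%, against 4.48% of all genes) and none lower, and the median difference over the 32 was 2.09. The 21 included the RNA-binding IFIT1 (5.72), IFIT3 (3.58) and IFIT5 (3.69), the oligoadenylate synthetases OAS1 (3.34), OAS2 (5.22) and OASL (3.17), the GTPases MX1 (4.20) and GBP1 (4.05), the ubiquitin-like ISG15 (4.02) with its conjugating enzyme UBE2L6 (1.73), and the chemokine CXCL10 (2.56). IFI27 had the largest value, 5.96, and IFITM2, BST2, PLSCR1, XAF1, ISG20, LGALS3BP, EIF2AK2, SP100 and ADAR followed between 0.94 and 2.55.

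Replicate arrays of 1 group differed far more on these genes than on others. IFIT1 read 10.49 and 11.87 on the WT PR-A arrays and 5.99 and 4.93 on the T47D-Y arrays. For MX1 the signal was 10.80 and 11.89 on the WT PR-A arrays and 7.44 and 6.85 on the T47D-Y arrays. The mean over the 32 genes was 8.21 and 9.19 on the WT PR-A arrays and 6.73 and 6.21 on the T47D-Y arrays, so replicate 2 was the higher of the WT PR-A pair and the lower of the T47D-Y pair. The PR-A K388R vehicle arrays averaged 7.21 and 6.47 and the WT PR-A R5020 arrays 7.22 and 8.26. The arrays of both lines overlapped for none of the 758 called genes, so the 21 stood apart by their choice; this was so for 56.7% of all genes. Replicate 2 was the higher WT PR-A array and the lower T47D-Y array for all 21. In the deposited values the sums of replicates 1 and 2 over the 5 groups are equal for every probe set, so a gap one way in some groups goes with gaps the other way elsewhere. The count of 21 depended on single arrays: 5 were called without replicate 2 of WT PR-A vehicle, 5 without replicate 2 of T47D-Y, 14 without replicate 1 of T47D-Y and 25 without replicate 1 of WT PR-A vehicle. IFI27, OAS2, GBP1, IFITM2 and CXCL10 were called whichever of the 4 compared arrays was left out. The 11 genes not called included IFI44L (2.77, SE 0.96), IFI16 (2.35, SE 0.72) and IFI6 (2.0, SE 0.69), and MX2 (-0.07), HERC6 (0.09) and LAMP3 (-0.88). SAMHD1, TRIM14, PML, GBP2 and APOL6 gave 1.19, 0.65, 0.60, 0.48 and 0.45; a second SAMHD1 probe set, at 1.73, was called.

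**Figure D2:**
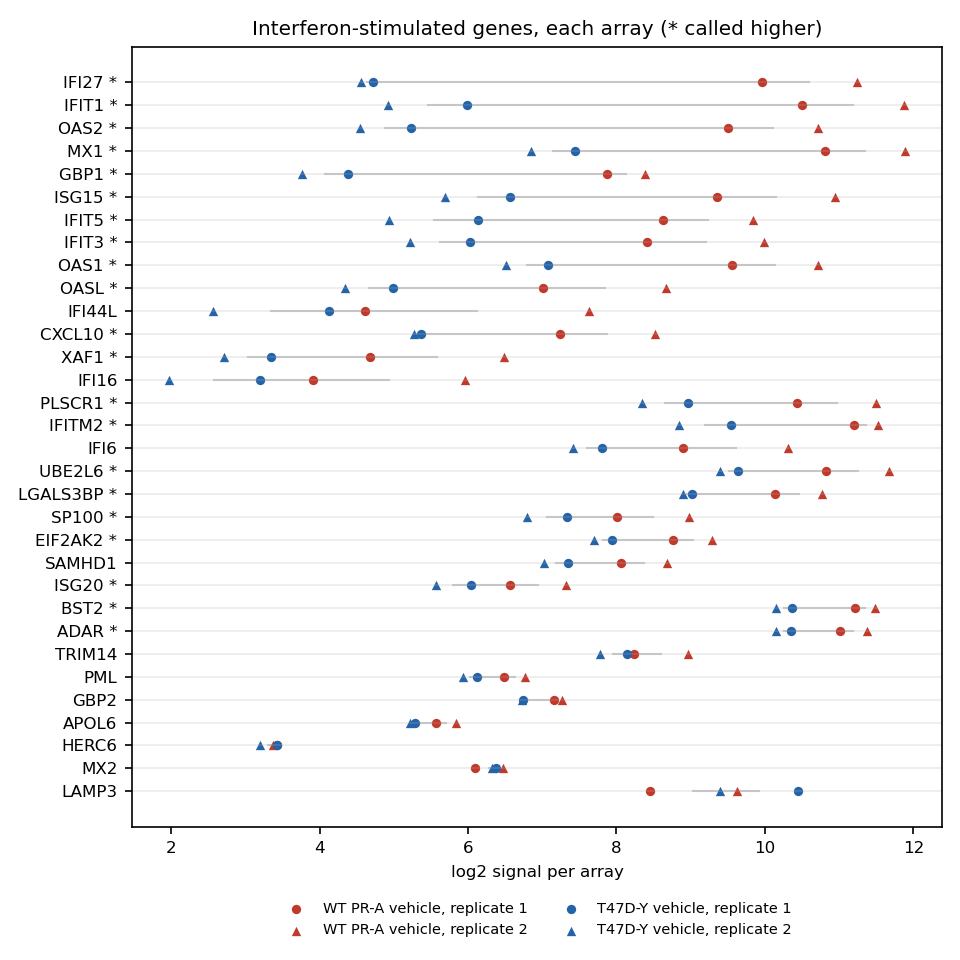
Log2 signal (x axis) of the 32 measured interferon-stimulated genes on each of the 4 vehicle arrays, ordered by the difference between lines; red is WT PR-A, blue T47D-Y, circles replicate 1, triangles replicate 2, and a grey line joins the group means. The arrays of both lines stand apart for the 21 called genes, and replicate 2 lies outside replicate 1 in both lines for all 21.

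The response element of this pathway has a core of 2 copies of GAAA that are 2 bases apart. In promoter windows from RefSeq (GRCh38.p14), which run from 250 bases before to 50 bases after a transcription start, this core was sought on both strands, and a gene with several starts was counted if any of its windows held it. Of all 35116 windows 3.57% held it, and of the 6908 measured genes with a window 4.30%. It was in a window of 16 of the 24 interferon-stimulated genes that had one, in 33 of 322 higher genes (10.2%) and in 3 of 280 lower genes (1.07%). Among the 299 higher genes outside the interferon and antigen presentation lists it was in 17 (5.69%). A match describes the letters and does not show that a factor binds there. The stretches upstream of the start that hold the core are shown for 6 called genes, so that the shared letters can be read; capitals mark the core or its reverse complement, where overlapping copies run together.
IFI27, chr14:94110608-94110670, plus strand: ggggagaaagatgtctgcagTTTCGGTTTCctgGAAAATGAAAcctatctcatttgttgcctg
IFIT1, chr10:89392487-89392549, plus strand: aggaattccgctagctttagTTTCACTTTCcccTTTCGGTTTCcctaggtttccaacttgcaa
ISG15, chr1:1013364-1013419, plus strand: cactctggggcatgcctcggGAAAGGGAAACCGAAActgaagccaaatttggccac
BST2, chr19:17405725-17405780, minus strand: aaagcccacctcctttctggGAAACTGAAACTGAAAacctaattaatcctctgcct
GBP1, chr1:89065306-89065355, minus strand: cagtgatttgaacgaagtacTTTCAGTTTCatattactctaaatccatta
CXCL10, chr4:76023689-76023738, minus strand: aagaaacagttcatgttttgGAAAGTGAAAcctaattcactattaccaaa
IFIT1 and IFI27 carried 2 copies within this stretch, as did ISG15 and BST2, where the copies overlap. These 6 genes differed by 5.96 (IFI27), 5.72 (IFIT1), 4.05 (GBP1), 4.02 (ISG15), 2.56 (CXCL10) and 1.10 (BST2). OAS2, OASL and IFITM2 had no window in the table. Of the 18 called genes with a window 13 held the core, and OAS1, XAF1, UBE2L6, SP100 and ADAR did not.

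Among 14 measured genes of interferon signalling, 2 were higher and 1 lower. IRF9 encodes the DNA-binding subunit of the STAT complex and is itself interferon-inducible. It read 9.78 and 10.39 on the WT PR-A arrays and 6.76 and 6.52 on the T47D-Y arrays. The difference was 3.45 (SE 0.54, adjusted p = 0.0032), and the PR-A K388R arrays read 7.61 and 6.75. IFNGR2, a chain of the interferon gamma receptor, was higher (0.96, SE 0.13), and the kinase JAK1 was lower by 0.64 (SE 0.13), with its 3 probe sets between -0.64 and -0.61. The JAK1 call was lost whichever of the 4 compared arrays was left out. The type I receptor chains gave -0.01 (IFNAR1) and -0.44 (IFNAR2), the kinase TYK2 -0.16, the factors IRF1 0.54, IRF2 0.22 and IRF3 -0.02, and the interferon gene IFNL1 0.15 at a level of 4.02 and 4.35 against 3.97 and 4.10; none was called. The double-stranded RNA sensors IFIH1 (1.70, SE 0.47) and TLR3 (1.46, SE 0.55), the interferon gamma receptor chain IFNGR1 (0.18) and the feedback inhibitor SOCS3 (0.01, with 0.62 and a call for its other probe set) were not called either. Of 12 genes of MHC class I presentation 4 were higher: the proteasome activator PSME1 (1.13), the heavy chains HLA-F (0.97) and HLA-E (0.66), and the peptide transporter TAP1 (0.92). B2M, the light chain, was 0.47 (adjusted p = 0.097) and PSMB9, an immunoproteasome subunit, 0.84 (adjusted p = 0.11). TAP2, ERAP2, TAPBP, CALR, CANX and PSMB10 were between -0.22 and 0.52. Of the 4 calls 1 was kept without each of the 4 compared arrays, with HLA-E lost whichever was left out and HLA-F and TAP1 lost without 3 of them. The heavy chain genes are close relatives, and probe sets may share signal among them.

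The sterol synthesis pathway was lower in WT PR-A cells. This pathway turns acetyl-CoA into cholesterol, and its genes are driven by SREBP factors that are released when sterol is scarce. Of 10 measured enzymes 6 were called lower (60%, against 4.03% of all genes), all 10 had a difference below 0, and the median was -0.78. HMGCS1, which makes HMG-CoA, read 7.41 and 7.32 log2 units in WT PR-A against 8.76 and 8.71 in T47D-Y, a difference of -1.37 (SE 0.13, adjusted p = 0.00015). SQLE, squalene epoxidase, read 4.34 and 4.07 log2 units in WT PR-A against 6.15 and 5.68 in T47D-Y, a difference of -1.71 (SE 0.20, adjusted p = 0.00059). For both genes the WT PR-A arrays lay below the T47D-Y arrays with no overlap. MVD, mevalonate decarboxylase, was at -1.08, LSS, lanosterol synthase, at -0.90, FDPS, farnesyl diphosphate synthase, at -0.85, and DHCR7, the enzyme of the last step, at -0.70. MVK, IDI1, EBP and PMVK were at -0.49, -0.46, -0.36 and -0.25 and were not called; MVK and IDI1 passed the adjusted p and missed the 1.5-fold limit.

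The list mean over the 10 enzymes was 8.51 and 8.47 in WT PR-A against 9.34 and 9.27 in T47D-Y, with 8.72 and 8.74 in PR-A K388R vehicle and 8.72 and 8.75 in WT PR-A with R5020. None of the 6 enzymes was called between the PR-A lines. The unadjusted 95% interval of PR-A K388R minus WT PR-A lay above 0 for 5 of them, among them FDPS (0.36, from 0.12 to 0.60) and SQLE (0.63, from 0.18 to 1.08), and spanned 0 for HMGCS1 (0.05, from -0.23 to 0.33). Against T47D-Y, PR-A K388R cells had 3 of the 10 enzymes called lower. Of 9 genes of sterol regulation and transport 3 were lower. ABCA1 exports cholesterol to apolipoproteins and is a target of the sterol-sensing LXR receptors. Its signal was 4.88 and 4.42 on the WT PR-A arrays and 6.92 and 7.29 on the T47D-Y arrays. The difference was -2.45 (SE 0.17, adjusted p = 2.9e-05); a second probe set gave -2.88 and another, near the lower quartile, -0.21. ABCG1, another exporter, was at -1.18 (SE 0.23) and the SREBP gene SREBF1 at -0.81 (SE 0.14). SREBF2 (-0.44), INSIG1 (-0.24), NPC1 (0.14), NPC2 (-0.52), SCARB1 (0.31) and OSBPL1A (0.23) were not called. Lipid genes outside the sterol pathway included 4 lower of 14 measured. These were the fatty acid importer CD36 (-2.95), DGAT1, which completes triglycerides (-1.95), the acyl-CoA synthetase ACSL1 (-1.17) and the desaturase SCD (-0.85). With R5020, SCD in WT PR-A cells stood at 12.50 and 12.59, the level of vehicle-treated T47D-Y (12.55 and 12.58), and ACSL1 at 10.70 and 10.92, above it (10.04 and 10.02). The sterol element TCACNCCAC was in none of the 9 promoter windows of sterol synthesis genes and in 1.13% of all windows, which says only that these letters are not in this stretch.

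Steroid receptors and their targets moved in both directions. ESR1, the estrogen receptor alpha gene and a driver of luminal growth, read 8.34 and 8.52 log2 units in WT PR-A against 9.74 and 10.11 in T47D-Y, a difference of -1.5 (SE 0.18, adjusted p = 0.00073). The WT PR-A arrays lay more than 1 log2 unit under the lower T47D-Y array, and with R5020 ESR1 stood at 7.73 and 7.90. Of 20 estrogen receptor targets, ESR1 among them, 6 were lower and 3 higher. TFF1, a secreted trefoil peptide and classical estrogen target, was at -1.20 (SE 0.13) and the IGF-binding proteins IGFBP4 and IGFBP5 at -0.81 and -0.86. GREB1, a coactivator of the estrogen receptor, was higher (1.27, SE 0.19), as were the carbonic anhydrase CA12 (1.16) and the amino acid transporter subunit SLC7A5 (0.78). Among 18 nuclear receptors 1 was higher (5.56%), the vitamin D receptor gene VDR with 3 probe sets from 0.69 to 1.17, and 1 was lower (5.56%), ESR1, shares close to those of all genes. HSD17B1, mentioned above, and CYP1A1 (-2.0, SE 0.51), a monooxygenase of estrogens and aryl hydrocarbons, were the 2 lower (6.67%) of 30 genes of steroid, retinoid and xenobiotic metabolism, and MAOA (1.25), which degrades monoamines, was the 1 higher (3.33%), again close to the shares of all genes.

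Genes that progestins induce were split in vehicle-treated cells, 3 higher and 3 lower of 20, with a median of -0.045. SGK1 encodes a kinase of ion transport and survival that PR induces. It stood at 3.86 and 4.75 on the WT PR-A arrays and 6.50 and 6.57 on the T47D-Y arrays. Without ligand it was thus lower in WT PR-A cells by 2.23 (SE 0.27, adjusted p = 0.00067), and R5020 took it to 8.68 and 8.54, above T47D-Y. PR-A K388R cells read 4.61 and 4.34 with vehicle and 9.68 and 9.12 with R5020. S100P, a calcium-binding protein of secretory epithelia, stood at 10.28 and 10.67 against 12.38 and 12.31 and at 13.41 and 13.62 with R5020, and the repressor BCL6 at 8.94 and 8.95 against 9.99 and 10.10 and at 10.50 and 10.57. EGFR, ANXA1 and CDKN1A were higher without ligand (1.33, 1.14 and 0.91). ANXA1 read 3.49 and 3.69 in T47D-Y, near the lower quartile of the arrays. Without each of the 4 compared arrays 1 of these 3 higher calls was kept, and all 3 lower calls of the list. CDKN1A was lost without 3 of the arrays and ANXA1 without 2. With R5020, EGFR and ANXA1 were called higher again, at 10.35 and 10.25 and 7.15 and 7.28, and CDKN1A read 9.36 and 9.47, which was not called against vehicle (adjusted p = 0.19). The progestin targets CEBPD (0.25), PDK4 (0.42), ALDH1A3 (0.07) and NDRG1 (-0.73, SE 0.23) were not called between the vehicle groups, nor was the deiodinase gene DIO2 (0.10). The palindromic progesterone response element, sought as GNACA and TGTNC set 3 bases apart, was in a window of 1 of 322 higher genes and 1 of 280 lower genes, beside 0.449% of measured genes and 0.390% of all windows.

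**Figure D3:**
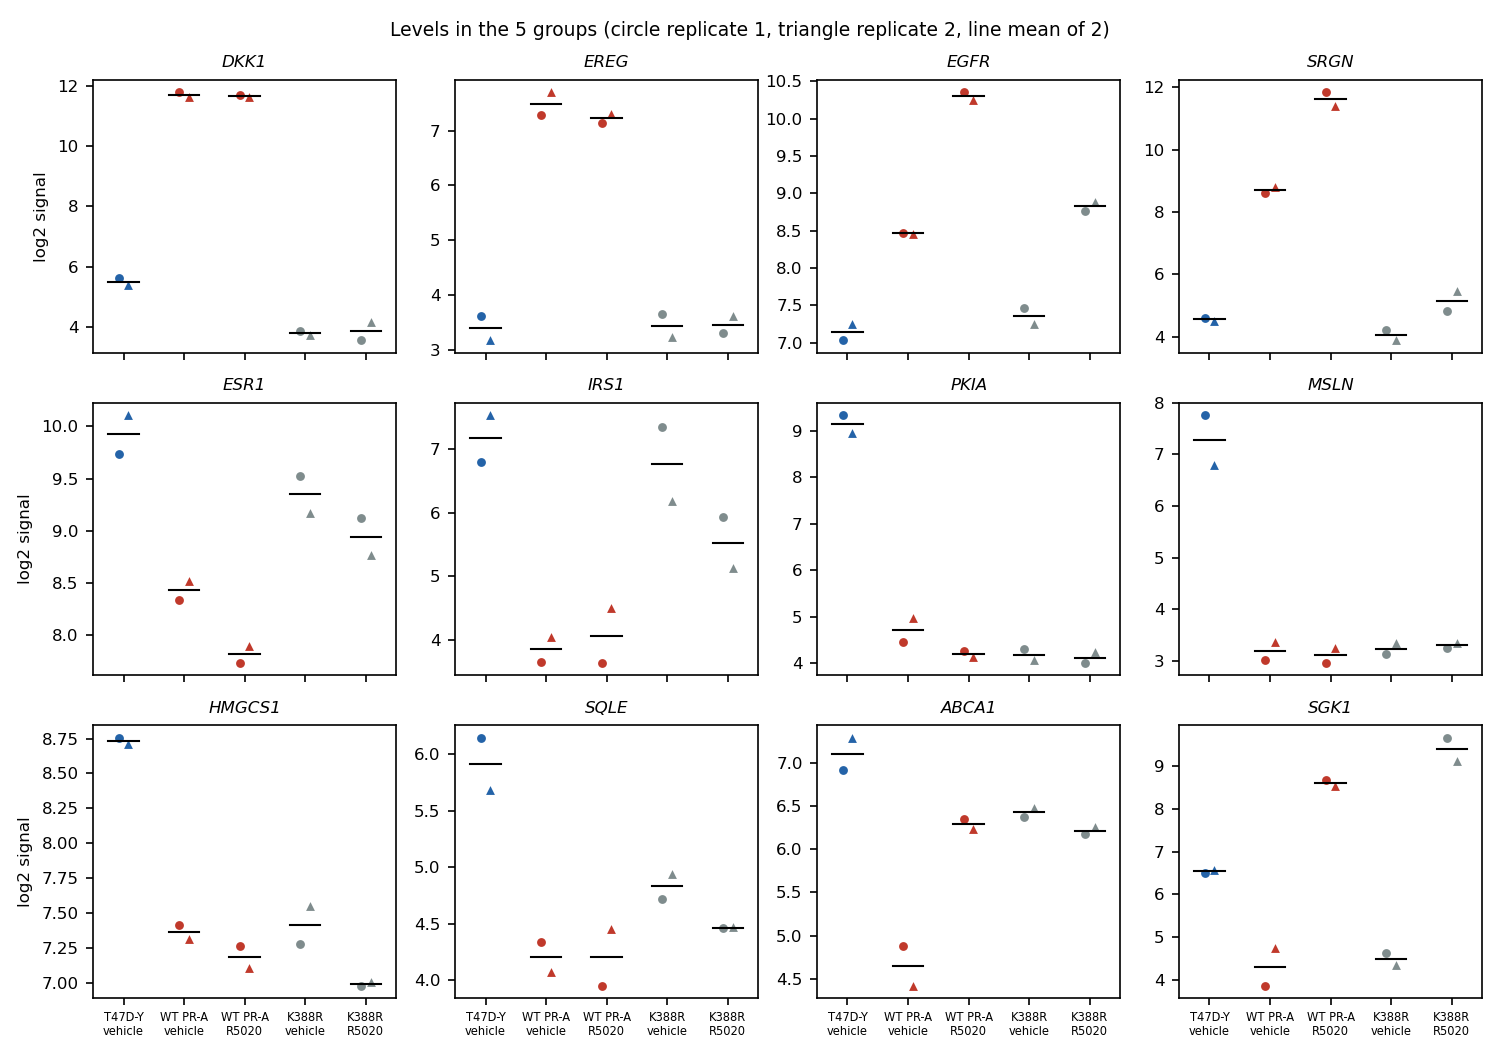
Log2 signal (y axis, scaled per gene) of 12 genes in the 5 groups; circles are replicate 1, triangles replicate 2 and lines the mean of 2 arrays. DKK1, EREG and SRGN were high in WT PR-A cells alone, PKIA, MSLN and HMGCS1 were low in both PR-A lines, and SGK1 was below T47D-Y with vehicle and above it with R5020 in both PR-A lines.

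Growth factor genes were called in several families. Of 9 EGF receptor genes and ligands 3 were higher and none lower: EREG (above), the ligand EGF and the receptor EGFR. EGF read 6.97 and 7.38 log2 units in WT PR-A against 4.99 and 5.09 in T47D-Y, a difference of 2.14 (SE 0.16, adjusted p = 4.1e-05), and EGFR read 8.47 and 8.45 log2 units in WT PR-A against 7.03 and 7.24 in T47D-Y, a difference of 1.33 (SE 0.13, adjusted p = 0.00019). The other 3 EGFR probe sets, all dimmer, gave -0.36 to 0.30 and were not called. Insulin-like growth factor signalling had 4 of 10 genes lower, which were IRS1, IGFBP2 (-1.32), IGFBP4 and IGFBP5, and 2 higher, the receptor IGF1R (1.05) and the binding protein IGFBP7 (1.37). In the protein kinase A pathway PKIA and the phosphodiesterases PDE4B (-2.32) and PDE4D (-1.45), which break down cyclic AMP, were lower, while the regulatory subunit PRKAR2B was higher. PRKAR2B read 10.02 and 9.95 log2 units in WT PR-A against 7.37 and 7.06 in T47D-Y, a difference of 2.78 (SE 0.17), and 7.03 and 7.53 in PR-A K388R cells.

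Of 15 Wnt pathway genes 3 were higher (20%, against 4.48% of all genes), DKK1, the noncanonical ligand WNT5A (1.85, SE 0.39) and the receptor FZD1 (0.74), and none lower. Of these 3 calls 1 was kept without each of the 4 compared arrays. WNT5A was lost whichever was left out, and FZD1 without 3 of them. In the TGF-beta and BMP list, 4 of 22 were higher and 2 lower. The pseudoreceptor BAMBI (-2.39, SE 0.44) and the ligand TGFB1 (-1.85, SE 0.18) were lower. LTBP1, which stores latent TGF-beta in the matrix (1.24), ID2, an inhibitor of differentiation factors (1.10), the receptor ACVR1 (0.63) and the inhibitory SMAD7 (0.62) were higher. A second TGFB1 probe set gave 0.06. Without each of the 4 compared arrays 1 of the 4 higher and 1 of the 2 lower calls of this list were kept. The 6 genes of the Notch list and the 12 semaphorin genes had no call.

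Adhesion genes were called in numbers that stood above the shares of all genes in both directions, 7 higher (21.2%) and 8 lower (24.2%) of 33. The integrin chains ITGA5 (1.24), ITGA6 (0.87) and ITGB1 (0.98), receptors for fibronectin and laminin, were higher, and ITGB4 (-0.97), which pairs with ITGA6 in hemidesmosomes, was lower. ICAM1, a leukocyte ligand, was higher (1.80, with 2.16 for its second probe set). Lower genes were MSLN and CEACAM6 (above), P-cadherin CDH3 (-0.88) and the gap junction gene GJA1 (-1.29), among others. Matrix genes had 6 higher and 2 lower of 30, with MGP, the laminin chain LAMB1 (1.43), the protease inhibitor TIMP2 (1.17) and the plasminogen activator PLAT (1.41) higher, and MATN2 and THBS1 (-1.59, SE 0.38) lower. Of 16 fibroblast and mesenchymal markers 1 was higher, COL1A1 (0.82, with its other 3 probe sets from 0.20 to 0.65 and not called), and 2 were lower, SPARC and the intermediate filament VIM (-1.40). The defining fibroblast gene LUM was between 2.34 and 2.58 on all 4 arrays, and the list mean was 4.71 and 4.72 against 4.92 and 4.94.

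Lineage markers were mixed. Of 13 luminal genes TFAP2B (2.15) and TFAP2A (0.79), factors of the AP-2 family, were higher, and the keratin KRT19 (-0.89) and the epithelial factor ELF3 (-0.74) lower. Of 11 basal and myoepithelial genes 4 were higher, among them smooth muscle actin ACTA2 (1.07), and 2 lower. The basal keratin KRT5 stood between 3.94 and 4.12 on all 4 arrays. Mucins, keratins and secretory proteins had 6 lower of 15 (40%), with KRT15 (-1.94), the neuropeptide receptor NPY1R (-2.18), TFF1 and CEACAM6, and 1 higher, the iron-binding LTF (1.31, SE 0.30). Of 6 measured cancer-testis antigens, genes normally silent outside the germ line, 4 were higher: PAGE4 (2.66), PRAME (1.61), MAGEC1 (1.33) and PAGE1 (0.65). PAGE4 read 9.38 and 9.43 log2 units in WT PR-A against 6.53 and 6.95 in T47D-Y and 9.53 and 9.50 in PR-A K388R cells.

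Several lists had no call. Of 26 genes of DNA replication, 21 of mitosis, 25 of oxidative phosphorylation and 17 ribosomal protein genes none was called, where 8.51% of all genes were, and the medians were 0.060, -0.12, 0.022 and -0.056. In limma at an unadjusted p under 0.05 with the same fold these 4 lists still had 0 calls, as had the Notch, semaphorin and leukocyte lists. They also had 0 without moderation of the variance, a stricter setting that called fewer of all genes and so adds nothing here. Of 12 G1 regulators CDKN1A and E2F3 (0.68) were higher. Of 10 genes of the SUMO pathway SUMO3 was lower (-0.73, with -0.75 for its other probe set), and of 18 coactivators and corepressors HDAC4 was higher (1.02) and KAT2B lower (-1.27). A second, dimmer HDAC4 probe set gave 0.009. Enzymes of glucose use included ENO1 (0.94), LDHB (1.05) and LDHA (0.68) higher, and the phosphofructokinase PFKL (-0.98) and the vasodilator peptide ADM (-1.37) lower, of 23 in the hypoxia and glycolysis list.

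Cytokine and unfolded protein response genes were called higher only, and AP-1, EGR and MYC factors and apoptosis regulators in both directions. Chemokines and cytokines had 4 higher and none lower of 23: CXCL1 (1.28), CCL20 (1.26), IL15 (0.96) and CXCL8 (0.76). Of 13 AP-1, EGR and MYC factors MAFF (0.90), JUN (0.82) and IER3 (0.73) were higher and FOSL2 (-0.62) lower. Of 26 apoptosis regulators the damage-responsive GADD45A (1.57) and the BH3-only PMAIP1 (0.81) were higher, and BIK (-1.35), BID (-0.63), BCL2L11 (-0.63) and the survival factor BCL2L1 (-0.64) lower. Of the 4 BCL2L11 probe sets 2 were called, and the others gave -0.11 and 0.05. In the unfolded protein response and ATF4 list the chaperone DNAJB9 (0.79) and asparagine synthetase ASNS (0.75) were higher, 2 of 15. Without each of the 4 compared arrays 1 of the 4 cytokine calls was kept, none of the 4 AP-1, EGR and MYC calls, 2 of the 6 apoptosis calls and neither unfolded protein response call. Actin regulators had 4 higher and 1 lower of 24, with CNN3 (1.58) and PLS3 (1.10) among the higher, and CAPG lower (-1.04). Among transporters the sulphate carrier SLC26A2 (1.27), the creatine carrier SLC6A8 (0.65) and SLC7A8 (1.03), which exchanges neutral amino acids, were higher and the fatty acid transporter SLC27A2 (-1.83) was lower, of 5 higher and 2 lower in 21. Of 30 proteases and serpins the carboxypeptidase of prohormones CPE (10.19 and 10.21 log2 units in WT PR-A against 6.85 and 7.10 in T47D-Y) was higher by 3.23, beside CTSS (0.78) and SERPINI1 (1.17), and PRSS23 (-2.04) and the inhibitor CST3 (-0.88) were lower.

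The remaining lists are short, and few calls make large shares in them, beside 4.48% higher and 4.03% lower of all genes. The shares higher and lower were 15.8% and 10.5% for S100 proteins and annexins and 5.56% and 11.1% for ion channels. They were 20% and 0% for metallothioneins and 9.09% each way for Ras and MAPK modulators. HOX and developmental factors had 9.52% and 4.76%, and endothelial markers 0% and 12.5%. S100 proteins and annexins had S100A1 (1.78), S100A13 (0.63) and ANXA1 higher and S100P and ANXA2 (-0.62) lower, of 19. Ion channels had ATP1B1 (0.82, with 0.36 and no call for its other probe set) higher and ANO1 (-0.91) and SCNN1B (-1.07) lower, of 18. Of 5 metallothioneins MT1X (0.70) was higher. Of 11 Ras and MAPK modulators the phosphatase DUSP1 (0.77) was higher and RASSF2 (-1.40) lower, and of 21 HOX and developmental factors SOX11 (1.19) and HOXC4 (0.98) were higher and MSX2 (-1.07) lower. The other DUSP1 and MSX2 probe sets, which were dimmer, gave 0.15 and -0.07 and were not called. Of 8 endothelial markers the TGF-beta co-receptor ENG (-0.89, with -0.15 and no call for its other probe set) was lower, while CDH5 and KDR were at the lower quartile in both lines.

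**Figure D4:**
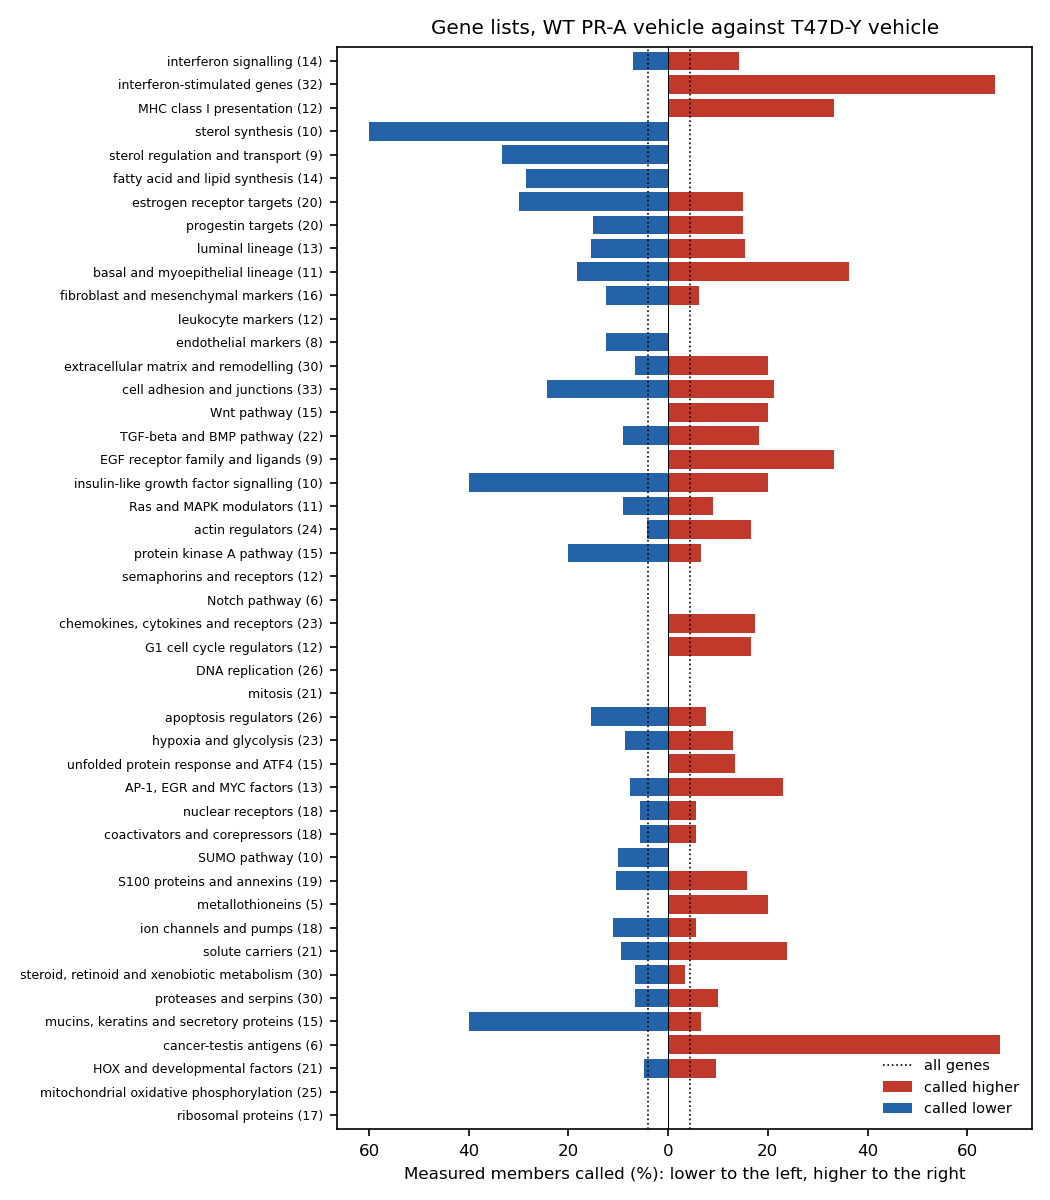
Percent of the measured members of each of 46 gene lists (number measured in brackets) called higher (red, to the right) or lower (blue, to the left) in WT PR-A vehicle against T47D-Y vehicle; dotted lines mark the shares of all 8904 genes, 4.48% higher and 4.03% lower. Interferon-stimulated genes (65.6%) and sterol synthesis genes (60%) have the longest bars among lists of 10 or more genes.

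Some of the called genes lay in runs of neighbours. The 4884 genes with a mean above 5 log2 units were put in their order along the chromosomes (RefSeq, GRCh38.p14), and a running median of the difference was taken over 31 neighbouring genes. This view was chosen after the values were seen, and it carries no test. A running median of at least 0.25 in size over at least 10 genes was found in 6 runs, on chromosomes 7, 8 and 14. In the 2 runs that were higher, 51 of 139 genes were called higher (36.7%), and in the 4 that were lower, 28 of 92 were called lower (30.4%), where genes outside the runs had 5.87% and 5.67%; the runs were found from the same values. They hold 82 of the 619 called genes in this order. DNA was not measured in these data.

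On chromosome 14 a run of 73 genes from PARP2 to SNAPC1 had a median difference of 0.43, with 65 of 73 above 0. Its mean signal was 8.57 and 8.55 on the WT PR-A arrays and 8.17 and 8.13 on those of T47D-Y. Both groups stood apart, and the R5020 arrays of the same line read 8.56 and 8.57, whereas those of PR-A K388R with vehicle read 8.10 and 8.11. IRF9, PSME1, SLC7A8 and HIF1A (0.63), the oxygen-sensitive transcription factor, lie in it, as does DHRS2, which was lower. Farther along the chromosome 2 runs were lower, 22 genes from ABCD4 to PTPN21 (median -0.43) and 28 genes from DICER1 to LINC00221 (median -0.36), the latter with DICER1 itself (-1.10), which cuts microRNA precursors, and the creatine kinase CKB (-1.15). Mean signals there were 7.71 and 7.69 against 8.09 and 8.12 in the first, and 7.90 and 7.88 against 8.34 and 8.39 in the second.

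On chromosome 7 a run of 66 genes from FZD1 to IMPDH1 was higher (median 0.47, 60 of 66 above 0, 28 called higher and 2 lower), with means of 8.34 and 8.32 in WT PR-A against 7.85 and 7.86 in T47D-Y. It holds PRKAR2B, LAMB1, DNAJB9, ASNS and the receptor tyrosine kinase gene MET (0.98). At the start of the chromosome 13 genes from PDGFA to SLC29A4 were lower (median -0.53), with PDGFA, a growth factor for mesenchymal cells, at -0.86. The last 29 genes of chromosome 8 in the order, from WASHC5 to ZNF252P, were lower (median -0.41), with means of 7.31 and 7.35 against 7.90 and 7.91, and include PSCA, DGAT1 and the cytoskeletal linker PLEC (-0.93). SQLE, which starts just before WASHC5, was too dim for this order, with a mean of 4.73 over the 10 arrays. With a window of 51 genes this run began at RAD21, and with a mean above 6 at ATP6V1C1, both farther from the end than SQLE. None of the 28 interferon-stimulated and 9 sterol synthesis genes in the order lies in any of the 6 runs. With a window of 51 genes, however, a lower run on chromosome 14 from SPTLC2 to LINC00221 spanned IFI27, which was itself higher. With a mean above 6 the lower run from NPC2 to IGH on that chromosome spanned IFI27 too. In the same setting a lower run from HSPA13 to PRMT2 appeared on chromosome 21, and it spanned MX1, which was itself higher. List members in the runs of these other settings were not counted. For the vehicle-treated PR-A K388R line the median differences from T47D-Y over the same 6 sets of genes were -0.063 to 0.16, and for the R5020-treated WT PR-A line they were 0.39 and 0.50 where the vehicle medians were above 0 and -0.58 to -0.34 where they were below. Those 6 sets were chosen on the WT PR-A vehicle values. By the same rule PR-A K388R vehicle against T47D-Y had 3 runs of its own, 49 genes from IMPDH1 to VIPR2 on chromosome 7 (median 0.53, -0.010 in WT PR-A), 18 from IL11 to MZF1 on chromosome 19 (0.32 and 0.18) and 24 from CD40 to PSMA7 on chromosome 20 (-0.31 and -0.17), which share 1 gene with the 6.

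**Figure D5:**
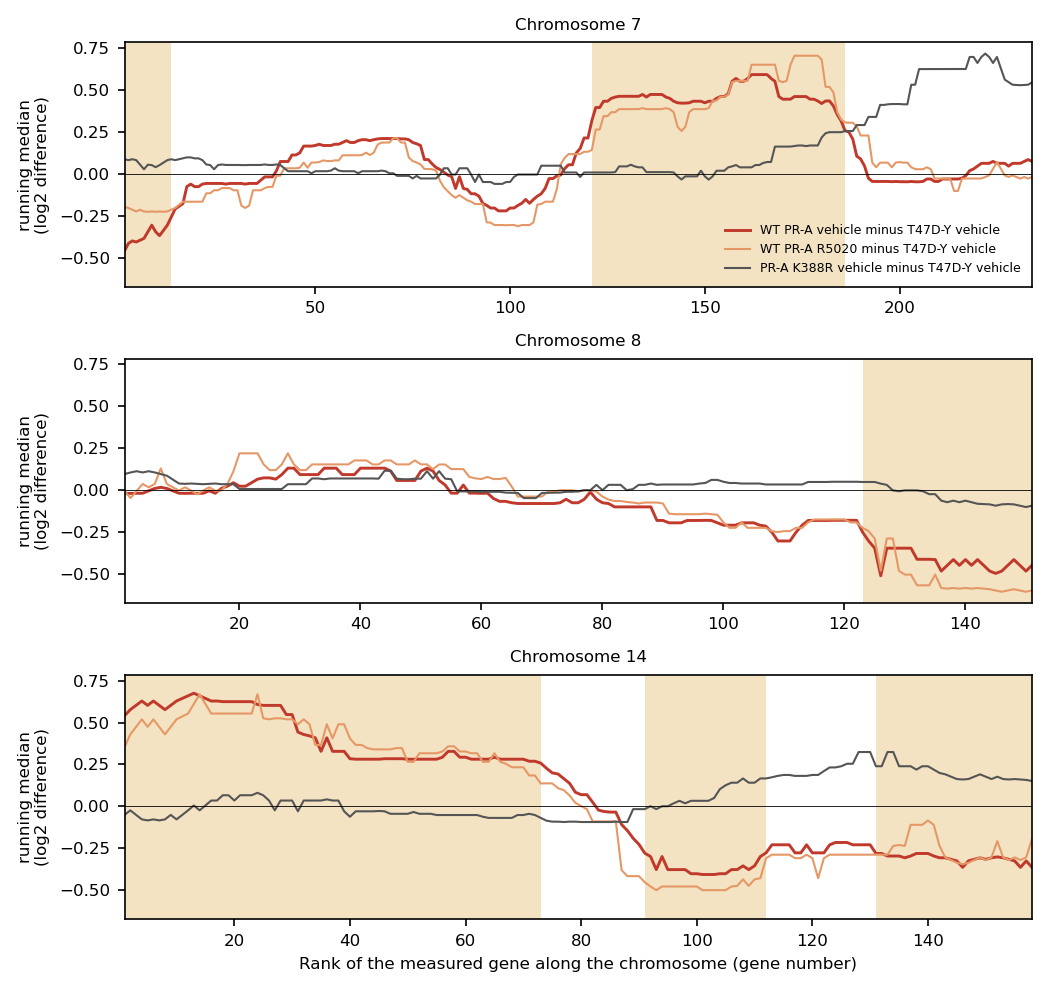
Running median of the log2 difference from T47D-Y vehicle (y axis) over 31 neighbouring genes, by the rank of the measured gene along chromosomes 7, 8 and 14 (x axis); red is WT PR-A vehicle, orange WT PR-A R5020, grey PR-A K388R vehicle, and shading marks the 6 runs. Both WT PR-A curves lie on the same side of 0 in each shaded run, while the PR-A K388R curve lies between -0.10 and 0.32 there, reaching 0.26 at the end of the second run of chromosome 7 and going on up beyond it; all 3 share the T47D-Y arrays.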

How the data were processed

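Total RNA of 10 samples was hybridised to Affymetrix U133 Plus 2 arrays, 1 array per sample and 2 per group. The deposited values are log2 signals per probe set, which the authors normalized in Partek; how Partek normalized them and corrected background is not given in the sources used here. Labels and methods name different media and RNA kits. Samples were grouped by genotype and treatment as labelled. Of 16376 probe sets, 12547 have 1 gene symbol, 457 several and 3372 none in the probe table; 12528 of the 12547 matched a gene of GRCh38.p14.

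The fit in limma 3.58.1 (R 4.3.3) used the 10 arrays, a mean for each group and the replicate number as a block (4 residual and 5.62 prior degrees of freedom). For every probe set the replicate 1 and replicate 2 arrays have equal sums over the 5 groups (largest difference 0.0003), so the replicate number had been removed before deposit, and whether replicates of like number deviate together could not be checked. Benjamini-Hochberg adjustment ran over all probe sets; the array number limits the precision. The fit was tested on simulated data.

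Named genes are the 15 largest differences in each direction among called genes, all members of 5 lists (interferon signalling, interferon-stimulated, MHC class I presentation, sterol synthesis, sterol regulation and transport), up to 4 called genes per direction of each other list, and the measured genes the study names. One result under this rule is not reported here. Genes in runs of neighbours (HIF1A, DICER1, CKB, MET, PDGFA, PLEC) and the markers KRT18, EPCAM, FOXA1, KRT5, PTPRC, LYZ, CD14, LUM, PECAM1, CDH5 and KDR were added. The members and lists were chosen with earlier results of these data known. Motifs were sought in RefSeq promoter windows. Alternatives were no block, the 4 or the 6 vehicle arrays alone, quantile normalization, median centring, an intensity trend, unmoderated contrasts, a 2-fold limit, p-values without adjustment, removal of the dimmest 40% of probe sets, the probe set of largest variance, and leaving out each array; windows of 21 and 51 genes, a mean above 6, leaving out the genes in runs, and runs in PR-A K388R were added after the data were seen. Figures were drawn with Python 3.11.15.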

Additional observations from a re-analysis of the deposited data

Results flagged for a closer look

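The 30 genes with the largest differences and the called interferon-stimulated and sterol synthesis genes, 49 in all, were set against the second PR-A line. For 31 of them the difference from T47D-Y was not the same in both vehicle-treated PR-A lines, since PR-A K388R minus WT PR-A was itself called (limma, adjusted p under 0.05 and at least 1.5-fold). That contrast called 9.12% of all genes, and it shares the WT PR-A arrays with the comparison that chose these genes, so the count is not independent of it. The log2 values that follow are PR-A K388R vehicle minus WT PR-A vehicle.

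Interferon-stimulated genes among them, all lower in PR-A K388R, were IFI27 (-4.12), IFIT1 (-5.09), OAS2 (-3.69), MX1 (-2.81), GBP1 (-3.85), ISG15 (-3.54), IFIT5 (-2.90), IFIT3 (-3.01), OAS1 (-2.65), OASL (-3.02), ISG20 (-1.70), IFITM2 (-1.77), XAF1 (-2.29), BST2 (-1.38), UBE2L6 (-1.56), EIF2AK2 (-1.32), PLSCR1 (-2.13) and CXCL10 (-1.74). The wide gaps between replicate arrays given for these genes apply here as well.

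Other genes lower in PR-A K388R were DKK1 (-7.92), TRDN (-0.767), ABCA13 (-4.97), SRGN (-4.67), EREG (-4.06) and PRRG1 (-3.54). Genes higher in PR-A K388R were PSCA (4.0), IRS1 (2.91), DHRS2 (0.885), REEP1 (2.55), CD36 (1.70), MATN2 (1.60) and CEACAM6 (3.12). For the 6 called sterol synthesis genes the 2 PR-A lines did not differ at the threshold.

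Among the 3829 probe sets with no or several gene symbols, which no comparison of the report uses, 68 were called higher and 110 lower in WT PR-A cells.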

How the results depend on the processing

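With 2 arrays per group, signal near the lower quartile and the spread between 2 arrays limit what can be called. Probe sets called higher and lower were 542 and 472, fell to 175 and 154 when the contrast was not moderated, and to 247 and 200 at a 2-fold limit. By gene, 399 and 359 became 137 and 125 unmoderated and 191 and 155 at a fold of 2. Leaving out each array in turn gave 365 to 559 probe sets higher, 304 to 471 lower, 271 to 412 genes higher and 235 to 357 lower; the lowest counts of lower calls, 304 and 235, came without replicate 1 of WT PR-A vehicle. Interferon-stimulated genes called higher were 21, 0 under the unmoderated contrast (limma; 20 there and 27 with moderation at an unadjusted p under 0.05), and 5 to 25 with 1 array left out, 5 without replicate 2 of WT PR-A vehicle or of T47D-Y. Sterol synthesis genes called lower were 6, 3 at a fold of 2, and 5 to 6 with 1 array left out. The fit with no replicate block called 563 and 486 probe sets, and the block changed none of the 171 calls of named genes. Of these 171, 47 kept their call under every alternative, 67 under the unmoderated contrast and 101 without each of the 4 compared arrays; none reversed. Of all genes, 199 of the 399 higher and 179 of the 359 lower kept their call without each of these arrays.
Genes that changed sign under an alternative were all not called: SOCS3 was -0.011 with quantile normalization and -0.0090 with median centring, and DIO2 was -0.24 with the probe set of largest variance. With 1 array left out in turn, SOCS3 ran from -0.059 to 0.077, DIO2 from -0.14 to 0.34, MX2 from -0.31 to 0.17, PSMB10 from -0.46 to 0.016, IFNAR1 from -0.093 to 0.068, IFNL1 from -0.056 to 0.35, IRF3 from -0.12 to 0.078, ALDH1A3 from -0.022 to 0.16, HERC6 from -0.050 to 0.23 and TAPBP from -0.073 to 0.13. The causes were not tested. Without the genes in runs of neighbours the gene counts were 348 and 328. The 6 runs became 8 with a window of 21 genes, 4 with 51, and 5 with a mean above 6, and a further lower run appeared on chromosome 21 with 21 genes (-0.26) and with a mean above 6 (-0.30).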
